A study of Mus musculus with 8 samples.

Results

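10 genes that act in or around antigen receptor signalling of lymphocytes were followed across 4 populations of dendritic cell progenitors from mouse bone marrow. They are the adaptors and scaffolds Lax1, Lat, Lat2, Blnk and Bank1, the kinases Syk and Btk, the surface receptors Cd22 and Cd69, and the phosphoprotein gene Arpp21. They were chosen by their log2 levels in these same arrays across the 4 populations, so their values below are a description and carry no test. All 10 were found among 19938 genes measured by a probe set that the array's annotation ties to a single symbol, and each had 1 such probe set. Lax1, Lat, Blnk, Bank1 and Arpp21 were all highest in Id2-GFP- pre-CD8 cells, Cd22 was highest in Id2-GFP+ pre-CD8 cells, Cd69 was lowest there, and Lat2, Syk and Btk were at similar levels in all 4 populations.

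The populations were the CDP (the common dendritic cell progenitor) and the pre-CD8, a progenitor that the labels name without defining it, each sorted into cells without and with green fluorescence from a reporter in the Id2 gene, with 2 arrays per population and 8 in all. Titles and sources give Id2-IRES-GFP reporter mice for every sample. The genotype field gives heterozygous Id2-IRES-GFP for both Id2-GFP- CDP samples and heterozygous Zbtb46-GFP for the other 6, so each comparison with Id2-GFP- CDP also crosses that difference in the labels. Ages, sort gates and the number of animals behind a sample are not in the labels. Whether the 2 samples of a population are separate animals is not stated either, and p-values then reflect the spread between arrays alone, which may be technical. Id2 itself stood at log2 5.14 to 7.18 on the 4 arrays titled Id2-GFP- and at 9.26 to 10.99 on the 4 titled Id2-GFP+. Genes from a list of 9 for dendritic cell progenitors differed in brightness. Flt3, the receptor for the growth factor of this lineage, was bright in all groups, with group means of 11.04 to 12.40. So was Irf8, a transcription factor of dendritic cells, at 11.78 to 12.92, and Kit and Cd34 had group means of 10.05 to 11.90. Zbtb46 was at 5.81 in both Id2-GFP- groups, 7.02 in Id2-GFP+ CDP and 7.86 in Id2-GFP+ pre-CD8. Csf1r fell from 11.04 in Id2-GFP- CDP to 9.10 in Id2-GFP- pre-CD8, with an adjusted p of 0.00663 by limma. It was at 10.34 in Id2-GFP+ CDP and 8.01 in Id2-GFP+ pre-CD8. Levels are log2 of the RMA intensity, and no detection call was used. The lower quartile of the gene means was log2 5.04, and differences between values near that level are compressed.

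Antigen receptors of B and T cells have no enzyme of their own. Kinases of the Src family phosphorylate the receptor tails, Syk or its relative Zap70 docks there, and adaptors that are phosphorylated in turn gather Btk, phospholipase C gamma and guanine exchange factors. Lat does this at the membrane of T cells, mast cells and platelets, Lat2 (also called NTAL or LAB) in B, mast and myeloid cells, and Blnk (SLP-65) in the cytosol of B cells, while Lax1 is a membrane adaptor that restrains signalling and Bank1 is a B cell scaffold that binds Src family kinases. Cd22 is a sialic acid-binding receptor whose cytoplasmic motifs recruit phosphatases to the B cell receptor. Dendritic cells and their progenitors use Syk and Btk downstream of Fc receptors and C-type lectins.

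Id2 protein works by holding E proteins off DNA, and E proteins bind E-boxes, sites of the form CANNTG. The sequence upstream of a start is therefore shown for members of opposite pattern that have a single start in the table used. These are Blnk and Bank1, highest in Id2-GFP- pre-CD8, against Cd22, highest in Id2-GFP+ pre-CD8, and Lat is shown as well. Each sequence is the 250 bases before the start in RefSeq's table for GRCm38.p6, 5′ to 3′ on the strand of the gene. The annotated spans of Bank1, Cd22 and Lat reach upstream of the start used, to 136326141, 30880342 and 126369705. The Cd22 window thus lies wholly within its gene, and those of Bank1 and Lat lie partly within theirs. Capitals mark matches to the E-boxes CAGCTG and also CAGGTG, and to GAGGAAGT (a form bound by PU.1), all searched on both strands, where CAGGTG on the other strand reads CACCTG.
Blnk (chr19:40994222-40994471, minus strand): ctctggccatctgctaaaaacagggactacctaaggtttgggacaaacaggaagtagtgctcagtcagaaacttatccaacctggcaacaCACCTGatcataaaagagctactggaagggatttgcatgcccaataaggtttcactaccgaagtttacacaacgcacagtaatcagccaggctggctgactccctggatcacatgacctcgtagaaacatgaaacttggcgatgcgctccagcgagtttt
Bank1 (chr3:136326067-136326316, minus strand): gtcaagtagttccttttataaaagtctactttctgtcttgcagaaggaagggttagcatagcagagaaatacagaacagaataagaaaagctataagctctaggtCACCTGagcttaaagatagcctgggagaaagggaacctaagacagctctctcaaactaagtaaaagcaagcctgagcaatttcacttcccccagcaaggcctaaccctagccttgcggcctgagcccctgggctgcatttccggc
Cd22 (chr7:30879029-30879278, minus strand): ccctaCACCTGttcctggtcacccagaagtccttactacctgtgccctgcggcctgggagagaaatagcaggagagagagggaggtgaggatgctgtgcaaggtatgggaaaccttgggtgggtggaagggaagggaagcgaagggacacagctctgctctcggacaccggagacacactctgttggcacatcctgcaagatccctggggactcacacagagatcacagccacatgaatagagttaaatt
Lat (chr7:126369569-126369818, minus strand): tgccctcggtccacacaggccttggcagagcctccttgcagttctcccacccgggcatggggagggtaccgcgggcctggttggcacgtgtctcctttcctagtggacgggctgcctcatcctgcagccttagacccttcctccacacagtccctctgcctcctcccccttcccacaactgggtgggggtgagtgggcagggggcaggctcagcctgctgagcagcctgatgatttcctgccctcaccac
Blnk, Bank1 and Cd22 each held 1 CAGGTG match, read as CACCTG, whose first base lay 160, 145 and 245 bases before the start. Lat held no match to any of the 3 motifs. Other forms of CANNTG were not searched, and the Lat window holds such letters, among them cacgtg. Of all 32851 windows of this length in the table, 27.7% held CAGCTG or CAGGTG (13.0% and 17.2% singly) and 2.44% held GAGGAAGT. Of the 10 genes, 8 had an entry in the table and 5 had CAGCTG or CAGGTG in at least 1 window, among them Arpp21, which has several annotated starts, and Syk. By window this was 10 of 18, and some windows of Arpp21 overlap each other. A share per gene over the whole table was not computed. Lax1 and Btk held neither CAGCTG nor CAGGTG, and Lat2 and Cd69 had no entry. Genes highest in either pre-CD8 class thus shared the CAGGTG letters, and a match describes letters and not a bound site.

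The membrane adaptor Lax1 had the widest span of the 5 genes that were highest in Id2-GFP- pre-CD8. Its log2 level was 5.46 and 5.60 on the Id2-GFP- CDP arrays, 5.44 and 5.93 in Id2-GFP+ CDP, 10.38 and 9.96 in Id2-GFP- pre-CD8, and 6.93 and 7.18 in Id2-GFP+ pre-CD8. Both CDP groups overlapped at the bottom, Id2-GFP+ pre-CD8 lay 1.37 above the nearer CDP mean, and Id2-GFP- pre-CD8 lay a further 3.11 above that with no overlap at either step. In linear terms Lax1 in Id2-GFP- pre-CD8 was 24.9-fold above the Id2-GFP- CDP level (log2 4.64 ± 0.24 SE) and 8.66-fold above that of Id2-GFP+ pre-CD8 (log2 difference of Id2-GFP+ minus Id2-GFP- of -3.11 ± 0.24). Lax1 was the only one of the 5 for which both pre-CD8 groups lay above both CDP groups by more than 1 log2 unit.

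Lat was at 6.46 and 6.58 in Id2-GFP- CDP, 7.11 and 6.98 in Id2-GFP+ CDP, 9.46 and 9.95 in Id2-GFP- pre-CD8, and 7.21 and 7.18 in Id2-GFP+ pre-CD8. The Id2-GFP- pre-CD8 arrays stood 2.51 ± 0.22 above those of Id2-GFP+ pre-CD8 and 3.18 ± 0.22 above those of Id2-GFP- CDP. Among the other groups the steps were small: both Id2-GFP+ groups were 0.15 apart and did not overlap, and Id2-GFP+ CDP was 0.52 above Id2-GFP- CDP. The reporter difference of Lat therefore had opposite signs at the 2 stages, +0.52 in CDP and -2.51 in pre-CD8.

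Lat2, which shares the architecture of Lat, did not share its pattern. It read 10.04 and 9.87 in Id2-GFP- CDP, 9.93 and 10.25 in Id2-GFP+ CDP, 9.87 and 10.02 in Id2-GFP- pre-CD8, and 9.94 and 10.31 in Id2-GFP+ pre-CD8. All 4 groups overlapped their neighbours, and the group means spanned 0.18, which is below the pooled replicate SD of 0.19. Lat varied between groups while Lat2 varied no more than its replicates did.

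The cytosolic adaptor Blnk was at 6.85 and 7.52 in Id2-GFP- CDP, 5.78 and 6.41 in Id2-GFP+ CDP, 9.58 and 10.37 in Id2-GFP- pre-CD8, and 6.08 and 6.01 in Id2-GFP+ pre-CD8. Among pre-CD8 cells it was 15.2-fold higher in the Id2-GFP- class (log2 difference of Id2-GFP+ minus Id2-GFP- of -3.93 ± 0.34), the widest reporter gap of the falling members. Both Id2-GFP- groups lay above both Id2-GFP+ groups, which overlapped at the bottom, and the Id2-GFP- gap widened from 1.09 in CDP to 3.93 in pre-CD8. In CDP that gap was 0.44 between the brighter arrays of the 2 groups and 1.74 between the dimmer ones (sets defined below).

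The scaffold Bank1 read 5.34 and 5.67 in Id2-GFP- CDP, 6.27 and 6.52 in Id2-GFP+ CDP, 7.87 and 7.84 in Id2-GFP- pre-CD8, and 5.76 and 6.05 in Id2-GFP+ pre-CD8. No neighbouring groups overlapped, with gaps of 0.40, 0.48 and 1.47 from the lowest mean upward. Among pre-CD8 cells Bank1 was 3.87-fold higher in the Id2-GFP- class, and at the CDP stage it was 1.85-fold higher on the Id2-GFP+ side. Bank1 and Lat were the members whose reporter difference changed sign between stages with no overlap at either stage.

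Arpp21, a cAMP-regulated phosphoprotein known from neurons and immature thymocytes, was at 5.87 and 5.86 in Id2-GFP- CDP, 5.32 and 5.80 in Id2-GFP+ CDP, 8.67 and 8.60 in Id2-GFP- pre-CD8, and 5.18 and 5.58 in Id2-GFP+ pre-CD8. Id2-GFP- pre-CD8 stood apart, 9.54-fold above Id2-GFP+ pre-CD8 and 6.82-fold above Id2-GFP- CDP, and the 6 arrays of the other groups read 5.18 to 5.87. An intron of Arpp21 carries the microRNA gene Mir128-2, which has a probe set of its own on the array, and the mature product of its 3′ arm is shown with the seed (bases 2 to 8) in capitals.
mmu-miR-128-3p: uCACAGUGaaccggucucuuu
The Mir128-2 probe set read 4.81 to 5.60 over the 8 arrays and its group means spanned 5.02 to 5.31. Id2-GFP- pre-CD8 overlapped Id2-GFP+ pre-CD8 there, with a difference of -0.29 ± 0.22 (Id2-GFP+ minus Id2-GFP-), against -3.25 ± 0.22 for Arpp21. The probe set of the host gene thus differed between groups where that of the microRNA gene was low and overlapped. Its values lay around the lower quartile of 5.04, where differences are compressed. They cannot show whether the microRNA follows its host.

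The 2 kinases differed little. Syk read 8.68 and 8.49 in Id2-GFP- CDP, 8.44 and 9.04 in Id2-GFP+ CDP, 9.08 and 9.03 in Id2-GFP- pre-CD8, and 8.57 and 9.23 in Id2-GFP+ pre-CD8. Groups next to each other in level overlapped, and the widest gap, 0.47 ± 0.29 between the Id2-GFP- groups (whose arrays were separate), set the span of the means against a pooled replicate SD of 0.32. Btk read 9.54 and 9.29 in Id2-GFP- CDP, 9.17 and 9.69 in Id2-GFP+ CDP, 9.84 and 9.29 in Id2-GFP- pre-CD8, and 9.31 and 9.79 in Id2-GFP+ pre-CD8. Its means spanned 0.15 with a replicate SD of 0.33. Both kinases were higher on the brighter array of every group (4 of 4); the sets are described below.

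Between the pre-CD8 classes Cd22 ran against Lax1, Lat, Blnk, Bank1 and Arpp21. In CDP it was higher in Id2-GFP+ cells, as were Lat and Bank1. Cd22 read 6.49 and 8.28 in Id2-GFP- CDP, 9.99 and 9.38 in Id2-GFP+ CDP, 5.91 and 6.98 in Id2-GFP- pre-CD8, and 10.67 and 10.80 in Id2-GFP+ pre-CD8. Every Id2-GFP+ array lay above every Id2-GFP- array, the 2 Id2-GFP- groups overlapped, and Id2-GFP+ pre-CD8 lay 1.05 above Id2-GFP+ CDP with no overlap. The difference was 19.6-fold in pre-CD8 (log2 4.29 ± 0.57) and 4.91-fold in CDP (log2 2.30 ± 0.57). The Id2-GFP- CDP arrays had an SD of 1.27 log2 units, and without replicate 1 or 2 of that group the CDP difference was 1.40 or 3.19.

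Cd69, a C-type lectin that rises early on activated lymphocytes and pulls down the egress receptor S1pr1, read 10.40 and 9.42 in Id2-GFP- CDP, 7.86 and 9.24 in Id2-GFP+ CDP, 10.42 and 9.71 in Id2-GFP- pre-CD8, and 6.26 and 7.13 in Id2-GFP+ pre-CD8. The Id2-GFP- groups overlapped at the top, Id2-GFP+ CDP lay 1.36 below Id2-GFP- CDP, and Id2-GFP+ pre-CD8 lay 1.85 below Id2-GFP+ CDP. Among pre-CD8 cells Cd69 was 10.3-fold lower in the Id2-GFP+ class (log2 -3.37 ± 0.53). It was higher on the brighter array in all 4 groups, and the gap between pre-CD8 classes was -3.28 within the brighter set and -3.45 within the dimmer one. Over the 8 arrays Cd69 and Cd22 correlated at r = -0.92, a description of 8 points that share 4 groups.

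**Figure D1:**
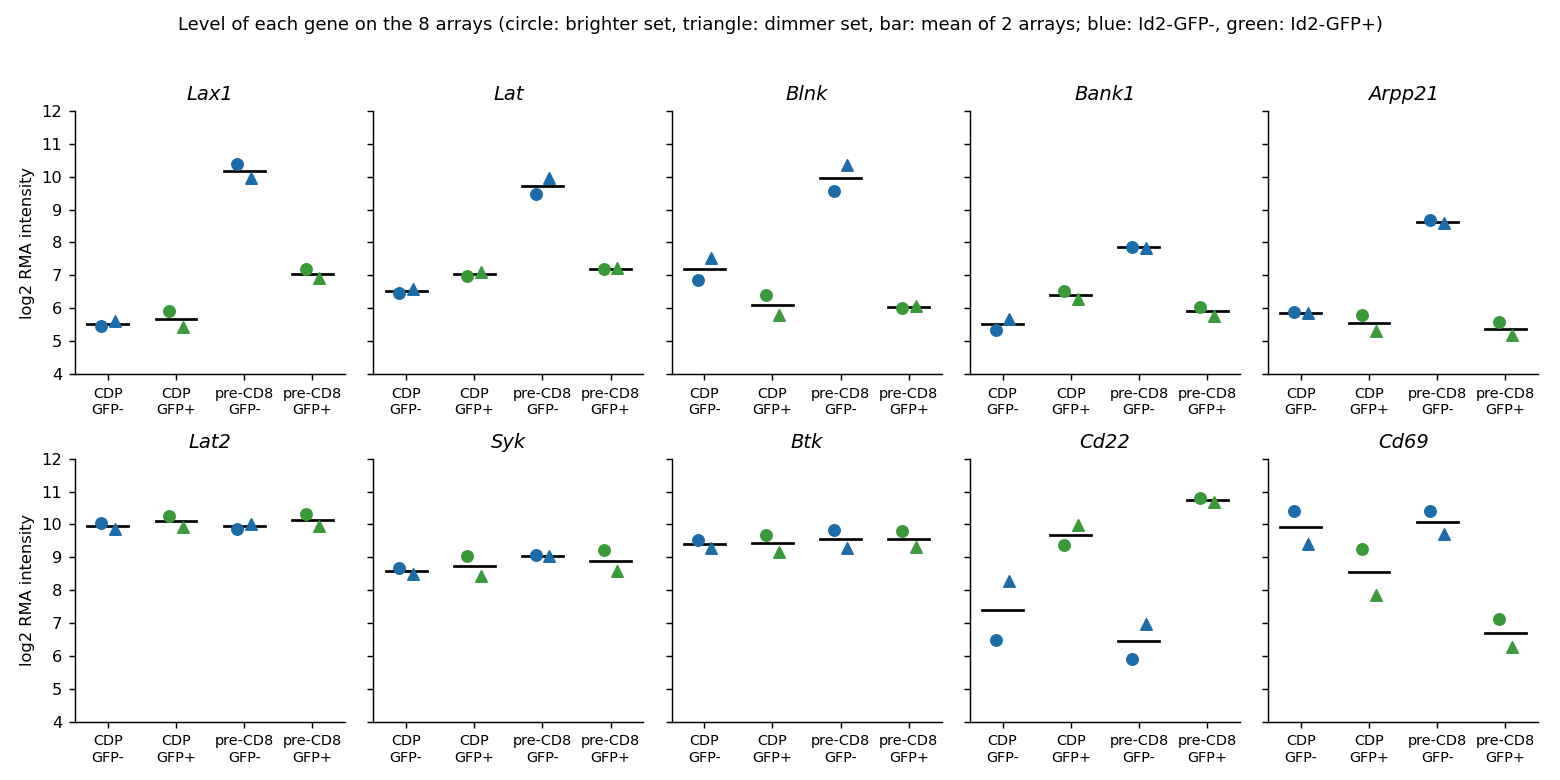
Log2 RMA intensity (vertical axis) of the 10 genes on the 2 arrays of each of 4 populations (horizontal axis), with circles for the brighter and triangles for the dimmer array set and bars for group means. The 5 genes of the upper row peak in Id2-GFP- pre-CD8, where Lax1 reads 10.38 and 9.96, while Lat2, Syk and Btk are level and Cd22 and Cd69 separate the reporter classes in opposite directions.

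Mean intensity over all probe sets was 460.7 to 477.9 on 4 arrays, called the brighter set, and 401.6 to 413.8 on the dimmer 4, each set with 1 array of every group. This division was seen in the data and is not in the labels. Within these sets the pre-CD8 reporter difference was -3.20 and -3.03 for Lax1, -2.28 and -2.74 for Lat, -3.57 and -4.28 for Blnk, -1.82 and -2.08 for Bank1, -3.09 and -3.42 for Arpp21, and 4.90 and 3.69 for Cd22, in the order brighter, dimmer. All 6 kept their direction in both sets. At the CDP stage the sets differed more for some genes: Lax1 stood at 0.47 and -0.16, and Arpp21 at -0.07 and -0.54.

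**Figure D2:**
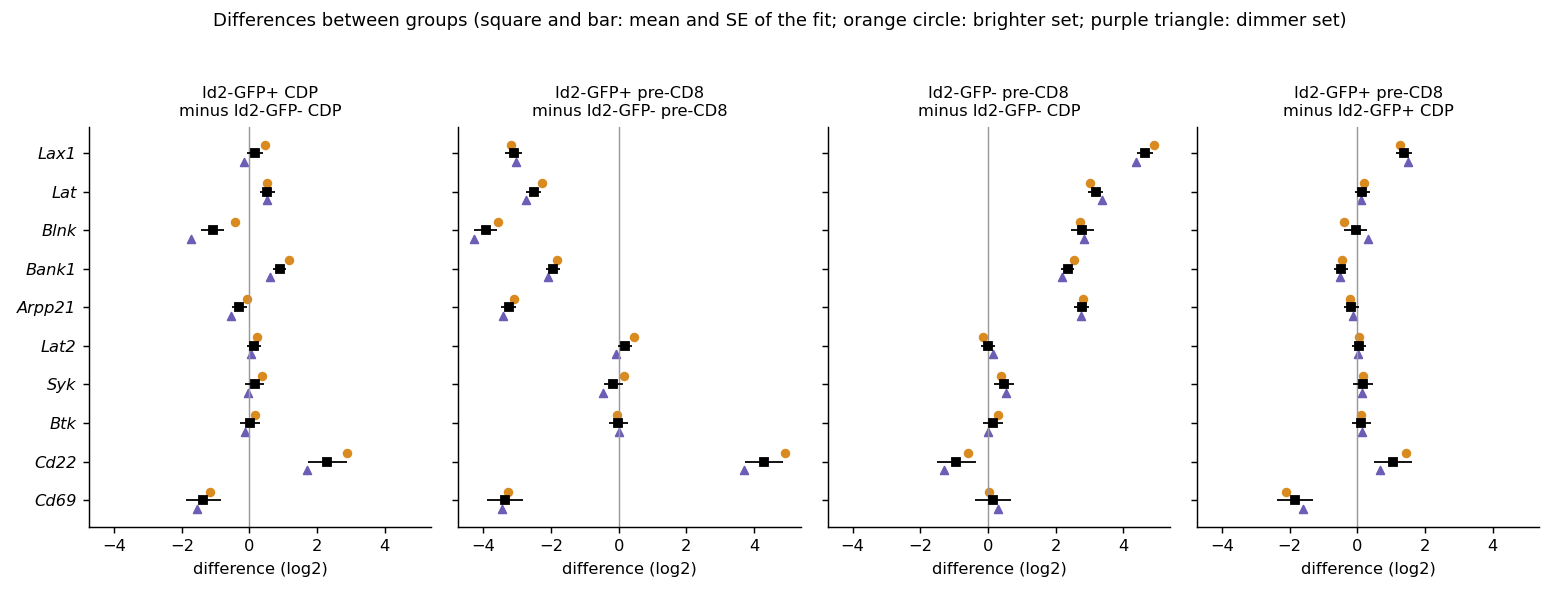
Difference in log2 intensity (horizontal axes) for each gene in 4 comparisons, with squares and bars for the fitted mean and its SE, orange circles for the brighter array set and purple triangles for the dimmer one. Between the pre-CD8 classes Lax1, Lat, Blnk, Bank1, Arpp21 and Cd69 lie left of 0 and Cd22 right of it in both sets; between the Id2-GFP+ stages the widest values are -1.85 for Cd69 and 1.37 for Lax1.

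For orientation only, the members were counted in the limma fit of all genes, at an adjusted p under 0.05 (Benjamini-Hochberg over 19938 genes). Between the pre-CD8 classes 7 of 10 members passed (1 higher and 6 lower in Id2-GFP+), where 6.26% of all genes did (3.57% higher and 2.7% lower), and from Id2-GFP- CDP to Id2-GFP- pre-CD8 5 of 10 passed, all higher, where 1.63% of all genes did (1.03% higher). Between reporter classes in CDP 0 of 10 passed, where 0.597% of all genes passed; 5 members and 5.51% of all genes had an unadjusted p under 0.05. A block for the array set let 5 members pass there (3 higher and 2 lower), where it called 1566 of the 19938 genes. Between the Id2-GFP+ stages 0 of 10 and 0.0% of all genes passed. At an unadjusted p under 0.05 there were 3 members and 3.22% of all genes. With the set blocked 2 members passed there, beside 414 of all genes. The contrast of the 2 reporter differences had 4 members passing (Lax1, Lat, Bank1 and Arpp21), where 0.145% of all genes did; leaving out 1 array left 0 to 3 of them, and a block for replicate number left 1. The members were picked for these contrasts, so nothing is read from the counts. The comparisons share groups, and each uses arrays of at least 1 other.

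The median difference of the 10 members was -2.23 between the pre-CD8 classes and 1.41 from Id2-GFP- CDP to Id2-GFP- pre-CD8, beside medians of -0.01 and 0.00 over all genes. In the CDP reporter comparison it was 0.14, and between the Id2-GFP+ groups 0.08. As counts of members whose arrays did not overlap, 7 of 10 were separate between the pre-CD8 classes, where 40.5% of all genes were, and 6 of 10 in CDP, where 25.0% were.

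The rest of the pathway was taken from a list of 103 genes in 6 roles, of which 95 were measured by a probe set of 1 symbol and none is a member. This list was chosen with earlier results of these data known. Its counts and shares, here and below, are therefore a description and not a test of the pathway. Between the pre-CD8 classes 10 of these 95 rose and 12 fell in Id2-GFP+ cells by limma, 23.2% of them against 6.26% of all genes, and the median of the list was 0.06. Blocking the array set gave 27 that rose and 25 that fell, where it called 4822 of all genes. Without 1 array at a time the total lay between 8 (without Id2-GFP+ pre-CD8 replicate 2) and 21, and it was 11 without Id2-GFP- pre-CD8 replicate 1, 13 without Id2-GFP+ pre-CD8 replicate 1 and 15 without Id2-GFP- pre-CD8 replicate 2.

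Of 14 inhibitory receptors, phosphatases and Cbl-type regulators 5 rose and 2 fell in Id2-GFP+ pre-CD8. Pirb, an Ig-like receptor with inhibitory motifs, rose by 2.64 ± 0.40 (adjusted p = 0.00666), the inhibitory Fc receptor Fcgr2b by 2.03 ± 0.30 (adjusted p = 0.0058), Btla by 1.70 ± 0.38 (adjusted p = 0.035) and the sialic acid-binding receptor Siglecg, a relative of Cd22, by 1.59 ± 0.25 (adjusted p = 0.00864). Ubash3b, a phosphatase that acts on Syk and Zap70, was the fifth. Cd72, an inhibitory co-receptor of B cells, fell by 2.71 ± 0.21 (adjusted p = 0.000629) and Ubash3a, the lymphoid relative of Ubash3b, by 2.02 ± 0.39 (adjusted p = 0.0191). Cd22 in this comparison lay on the side of Siglecg, Pirb and Fcgr2b, and Cd72 lay on the side of Blnk.

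Among the other adaptors, 4 of 30 fell (Clnk, Gab1, Dok2 and Tespa1) and 1, Themis2, rose. Tespa1, which takes part in T cell receptor signalling in the thymus, fell by 1.70 ± 0.25 (adjusted p = 0.0065). Of 11 receptor chains Fcer1g and Tyrobp, the tail chains of Fc and other myeloid receptors, rose, and Cd81 and Cd247 fell, and Cd81, a partner of the B cell co-receptor, fell by 2.36 ± 0.37 (adjusted p = 0.00838). Of 10 proximal kinases and regulators Fgr, a Src family kinase of myeloid cells, rose by 2.20 ± 0.38 (adjusted p = 0.0122) and Blk, a Src family kinase of B cells, fell. In the calcium and lipid arm 2 of 14 fell, Plcg1 and Dgkz, and none rose. In the GTPase and NF-kB arms Map4k1 rose and Prkcq, the protein kinase C of T cell receptor signalling, fell by 2.07 ± 0.35 (adjusted p = 0.0113), 2 of 16 in all. Btla and Ubash3a each lost the call in 3 of the 8 fits that left out 1 pre-CD8 or CDP array, both of them when Id2-GFP- pre-CD8 replicate 1 was left out (adjusted p up to 0.198 for Btla and 0.11 for Ubash3a). Cd81, Fgr and Siglecg each lost it without 2 arrays and Pirb, Prkcq and Tespa1 without 1, while Cd72 and Fcgr2b kept it without any 1 of the 8.

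**Figure D3:**
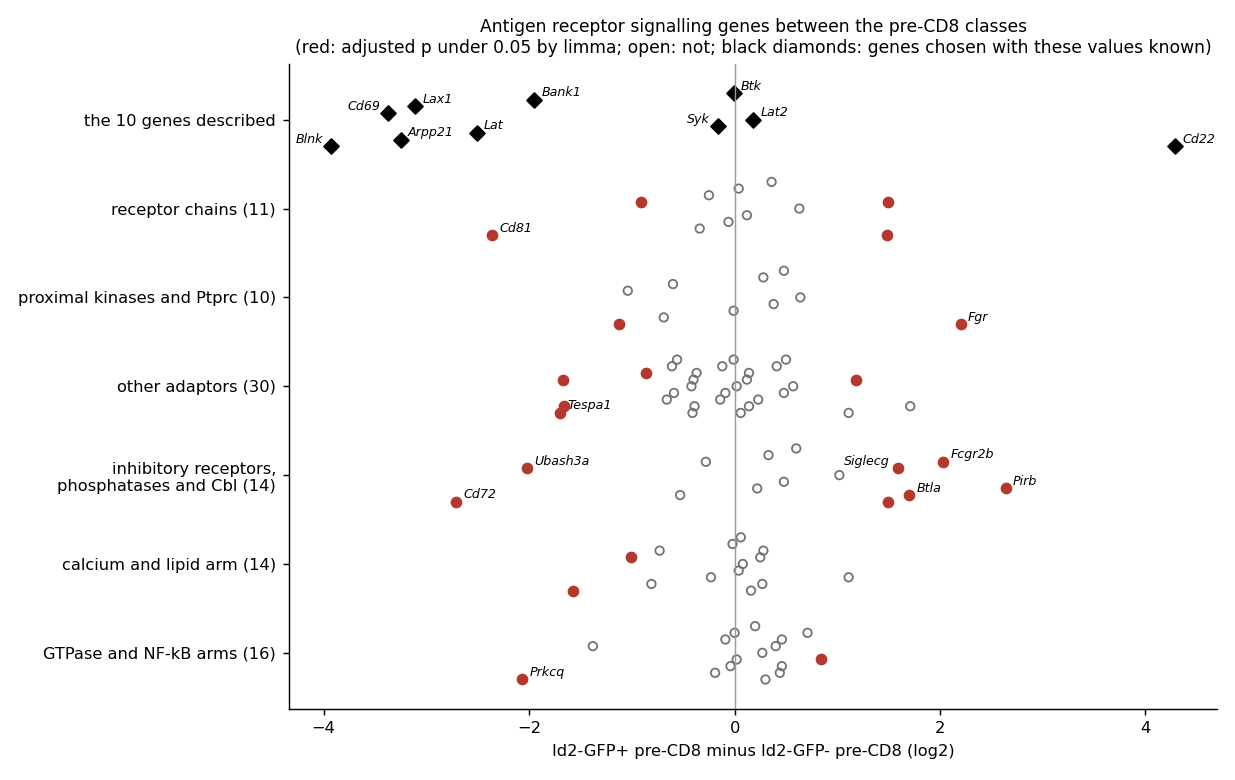
Difference between Id2-GFP+ and Id2-GFP- pre-CD8 cells in log2 intensity (horizontal axis) for the 10 genes described (black diamonds) and 95 other antigen receptor signalling genes in 6 roles (rows, with the number measured), red where the adjusted p by limma was under 0.05. The red points number 10 to the right of 0 and 12 to the left, and 5 of those to the right are in the row of inhibitory receptors and phosphatases.

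From Id2-GFP- CDP to Id2-GFP- pre-CD8, 8 of the 95 pathway genes rose and 3 fell by limma. That was 11.6% of the list, against 1.63% of all genes. Lax1, Lat, Blnk, Bank1 and Arpp21 were also higher in Id2-GFP- pre-CD8. Prkcq rose by 2.38 ± 0.35 (adjusted p = 0.0161), Clnk, an adaptor of the Blnk family, by 2.32 ± 0.20 (adjusted p = 0.00169), the adaptor Dok2 by 2.07 ± 0.39 (adjusted p = 0.0444), the exchange factor Rasgrp3 by 2.06 ± 0.34 (adjusted p = 0.0256) and Cd72 by 1.92 ± 0.21 (adjusted p = 0.00528). The 3 that fell were Fcgr2b (-1.54 ± 0.30, adjusted p = 0.0484), Fcer1g (-1.34 ± 0.23, adjusted p = 0.0302) and Tyrobp (-1.30 ± 0.17, adjusted p = 0.0106). The total of 11 was 3 or 2 when Id2-GFP- CDP replicate 1 or 2 was left out, and 3 or 5 for the Id2-GFP- pre-CD8 replicates in the same order. Blocking the array set gave 32 that rose and 9 that fell, where it called 2486 of all genes. Clnk and Cd72 kept their calls without any 1 of the 8 arrays. The others named here lost theirs without 2 to 6 of them, with adjusted p-values of at most 0.307.

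In CDP 2 of the 95 pathway genes rose in Id2-GFP+ cells and 0 fell by limma, 2.11% against 0.597% of all genes. At an unadjusted p under 0.05 there were 15 (15.8%), against 5.51% of all genes. When the array set was blocked 13 rose and 2 fell, where 1566 of all genes passed. Fgr rose by 2.33 ± 0.38 (adjusted p = 0.045), within sets by 3.13 and 1.54, and Ubash3b by 1.19 ± 0.19 (adjusted p = 0.0442). Fgr lost its call without 6 of the 8 arrays (adjusted p up to 0.406) and Ubash3b without any 1 of them (up to 0.396). Between the Id2-GFP+ groups 0 of 95 passed by limma, as did 0.0% of all genes. At an unadjusted p under 0.05 there were 13 (13.7%), against 3.22% of all genes. Blocking the set gave 2 that rose and 3 that fell. Over all genes that block called 414. In the contrast of reporter differences 0.145% of all genes passed by limma. Cd72 was the 1 pathway gene whose reporter difference differed between stages by limma, at -2.34 ± 0.30 (pre-CD8 minus CDP, adjusted p = 0.0392). It read 7.34 and 7.76 in Id2-GFP- CDP, 7.06 and 7.30 in Id2-GFP+ CDP, 9.41 and 9.52 in Id2-GFP- pre-CD8, and 6.76 on both Id2-GFP+ pre-CD8 arrays, the order of groups seen for Blnk. That call was lost without any 1 of the 8 arrays (adjusted p up to 0.163).

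Markers of other cells were read beside the members, since in sorted bulk samples fewer cells of a type and less RNA per cell cannot be told apart. A list of lymphoid progenitor genes (Rag1, Rag2, Dntt, Il7r and Lef1) moved with the members that peak in Id2-GFP- pre-CD8. The marker lists, like the members, were chosen with earlier results of these data known. Their counts here and below are therefore a description. All 5 genes of this list were measured, and 4 rose from Id2-GFP- CDP to Id2-GFP- pre-CD8, where 1.03% of all genes rose. From there to Id2-GFP+ pre-CD8 4 fell, where 2.7% of all genes fell. The summed intensity of the list was 5480 to 6750 in Id2-GFP- pre-CD8 and 267 to 537 over the remaining arrays. Rag1, a subunit of the antigen receptor recombinase, averaged 9.04 ± 0.65 (SD, n = 2) there and 4.96 to 5.13 elsewhere. Its part in the members' differences was not tested.

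B lineage genes moved less as a list. Of 13 listed 12 were measured. Between the pre-CD8 classes 2 rose and 2 fell by limma, where 3.57% of all genes rose and 2.7% fell. The summed intensity of the list was 5620 to 5700 in Id2-GFP- pre-CD8 and 7500 to 7950 in Id2-GFP+ pre-CD8. The mean log2 of the list ran the other way, at 6.65 to 6.80 in Id2-GFP- pre-CD8 and 6.49 to 6.53 in Id2-GFP+ pre-CD8, with a median difference of -0.14, so the list has no single direction. Ebf1, a factor that starts the B lineage, fell by 2.97 ± 0.33 (adjusted p = 0.00207), from 7.75 to 4.78. Cd79a, a signalling chain of the B cell receptor, was dim at 4.58 to 5.30 in group means and did not pass in any of the 4 comparisons, nor did Pax5 at 5.54 to 6.47. Cd79b, the other such chain on the list, was brighter at 8.36 to 8.61 and did not pass in any of them either. Of the 9 dendritic cell progenitor genes 5 rose and 3 fell between the pre-CD8 classes. The plasmacytoid dendritic cell list (8 of 10 measured) had 3 genes falling between the pre-CD8 classes and a summed intensity of 6360 to 8170 in the Id2-GFP- class and 4820 to 6280 in the other. The part of these lists in the members' differences was not tested. Of single genes that define other users of Lat, Cd3e averaged 6.06 to 6.31, the mast cell receptor chain Ms4a2 3.83 to 4.05 and the platelet gene Pf4 4.55 to 4.63 over the groups, and none of these 3 passed in any comparison. Neither the 9 basophil and mast cell genes nor the 4 megakaryocyte genes measured of 7 had a member passing between the pre-CD8 classes, and of 12 T and NK genes measured of 13 there were 2 that rose and 1 that fell. In CDP, where 0.597% of all genes passed, Lat was 0.52 higher in the Id2-GFP+ class. In that class 1 T and NK gene and 1 basophil and mast cell gene rose and 0 of either list fell. The median differences there were 0.62 and 0.33. The mean log2 of the T and NK list was 5.26 to 5.35 in Id2-GFP- CDP and 5.86 to 5.88 in Id2-GFP+ CDP, and its summed intensity 608 to 618 and 867 to 965. For the basophil and mast cell list the mean log2 was 5.68 to 5.98 and 6.13 to 6.67, and the summed intensity 829 to 1080 and 1100 to 2070, in the same order. Their part in the difference of Lat was not tested.

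**Figure D4:**
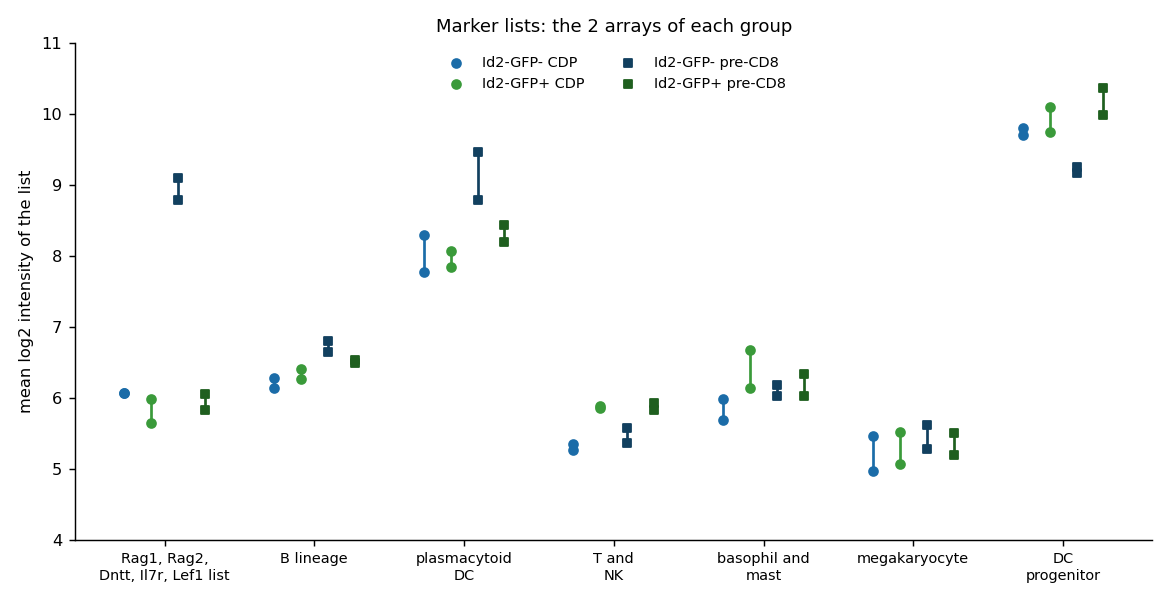
Mean log2 intensity (vertical axis) of 7 marker lists on the 2 arrays of each population, joined by a line. The list of Rag1, Rag2, Dntt, Il7r and Lef1 lies at 8.79 to 9.10 in Id2-GFP- pre-CD8 and at 5.65 to 6.07 in the other groups, while the megakaryocyte list stays between 4.97 and 5.61 in all groups.

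The genes most like each member were found as the 3 with the highest Pearson r over the 8 arrays among 409 genes whose group means span at least 2 log2 units. These are descriptions, since the 8 points share 4 groups and a gene high in 1 group correlates with any other such gene. Nearest to Lax1 were Sema3d, a secreted guidance protein (r = 0.99), P2ry14, a receptor for UDP-sugars (0.987), and Mycn (0.986). Their means in Id2-GFP+ pre-CD8 were 5.31, 7.91 and 6.35, each between the CDP means and the Id2-GFP- pre-CD8 mean of the same gene. Nearest to Lat were Tmem121, the cytokine signal suppressor Socs2 and the lymphocyte GTPase gene Gimap1 (0.991, 0.99 and 0.986). Blnk had as its nearest the pathway gene Cd72 (0.984), with Ociad2 (0.978) and Cmah (0.971), an enzyme that modifies sialic acid and so the ligands of Cd22.

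Bank1 lay nearest to Zfp831 (r = 0.979) and to 2 genes of the antiviral response, Ddx58 (0.965) and Rtp4 (0.964), which like it had higher means in the Id2-GFP+ class of CDP. For Arpp21 they were the amine transporter Slc18a1, the somatostatin receptor Sstr2 and Gimap9 (0.996, 0.996 and 0.992). Cd22 had the myeloid genes Aif1 (0.99) and Lilra6 (0.987) and Kmo, an enzyme of tryptophan breakdown (0.983), and Cd69 had Adgrg7 and Npl (both 0.993) and Gbp3 (0.984). Among the members, the 5 that peak in Id2-GFP- pre-CD8 correlated with each other at 0.81 (Blnk with Bank1) to 0.97 (Blnk with Arpp21). Cd22 correlated with these 5 at -0.78 (Blnk) to -0.46 (Bank1).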

How the data were processed

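8 Affymetrix mouse gene arrays were used. RMA was run in Expression Console, per the submitters' processing notes; versions and genome build are not given in the sources used here. The intensity values the authors deposited are linear, for 28853 probe sets. The test had been planned for log2 values, so log2 was taken first, without further normalisation. The array's annotation gave 1 symbol to 21789 probe sets, several to 1621 and none used here to 5443. Where a gene had several probe sets, the one with the highest mean over 8 arrays was used, which left 19938 genes, with no filter on dim genes.

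limma 3.58.1 in R 4.3.3 fitted a mean for each of 4 groups over all 8 arrays, with an intensity trend in the variance prior (4 residual and 8.191 total degrees of freedom). Tests were two-sided with Benjamini-Hochberg adjustment over all genes. Errors are SE of that fit unless called SD. Data were prepared in Python 3.11.15, and the fit was tested on simulated data. Those data had independent errors on each array and no array set difference, so that test does not cover the array sets. Precision is limited by the number of arrays.

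The 10 members, the pathway list and the marker lists were chosen with earlier results of these data known. Named pathway genes were up to 5 rising and 5 falling per comparison with the largest difference among those passing with no overlap between groups, and up to 5 for the contrast of reporter differences. Other genes are named as members of a counted list, and the Mir128-2 probe set was added after its values were seen. Like genes were the 3 of highest r per member whose group means span at least 2, leaving out predicted genes, smell receptors, small RNAs and receptor segments. Alternatives were quantile normalization, a filter on dim genes, no trend, the mean of probe sets, the compared groups alone, the replicate number as a block, each array left out and, chosen after seeing the data, the array set as a block. Promoter and microRNA sequences are from RefSeq (GRCm38.p6). The correlation of replicate 1 minus replicate 2 across genes was 0.69 and 0.713 between groups of the same reporter class and -0.685 to -0.626 between classes.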

Additional observations from a re-analysis of the deposited data

Results flagged for a closer look

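Cd72 was the pathway gene for which the reporter difference itself differed between stages by limma: -2.34 (pre-CD8 minus CDP, log2, adjusted p = 0.0392), with an adjusted p of 0.0264 after quantile normalization, 0.111 with the replicate number as a block and 0.000224 when the array set was blocked, and a range of 0.000224 to 0.163 over all alternatives. The call was lost when any 1 array was left out.

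For Lat, Bank1 and Clnk both Id2-GFP+ arrays lay above both Id2-GFP- arrays in CDP and below them in pre-CD8. Among the other pathway genes Hcst, Yes1, Tec, Gab3 and Sh2d2a did the same, and Gab2 did the reverse. The share of all genes with such a switch was not computed. Of all genes 25.0% did not overlap in CDP and 40.5% did not in pre-CD8. The difference between the 2 reporter differences was -3.03 for Lat and -2.84 for Bank1, and no p is given for either because both were chosen with these values known. Both are among the 4 members counted as passing in that contrast, a count from which nothing is read. For Clnk it was -1.55 ± 0.28, which did not pass by limma (adjusted p = 0.108). Its reporter difference was 0.69 in CDP (adjusted p = 0.402) and -0.86 in pre-CD8 (adjusted p = 0.0388).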

How the results depend on the processing

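Of 700 recomputed differences of the members, over 50 differences, 656 moved by at most the pooled SD of the gene's replicates, 44 moved by more, and 0 of those above that SD changed sign. Many of the 656 could not move. Each member had 1 probe set, so the mean of probe sets changed nothing. Both blocks held 1 array of every group, which leaves a difference as it was. Leaving out an array of a group not compared also changes no difference. The 656 therefore overstates how stable the differences are. The rest of this part gives counts of calls by limma, first for all genes and then for the 95 pathway genes. In the CDP reporter comparison the counts were 119 and 2. Quantile normalization gave 207 for all genes, fitting the 2 groups alone gave 1 pathway gene, and leaving out 1 array gave 35 to 126 and 0 to 1. In the pre-CD8 reporter comparison they were 1249 and 22, with 2567 for all genes after quantile normalization, and 466 to 1313 and 8 to 21 with an array left out. From Id2-GFP- CDP to Id2-GFP- pre-CD8 they were 324 and 11, with 858 and 21 after quantile normalization, 7 pathway genes with the 2 groups alone, and 77 to 326 and 2 to 11 with an array left out. Between the Id2-GFP+ groups they were 0 and 0 (643 genes at an unadjusted p under 0.05), with 24 genes after quantile normalization, 10 with only genes at or above the median mean level of 6.45, and 0 to 1 and 0 to 0 with an array left out. For the contrast of reporter differences they were 29 and 1, with 202 and 4 after quantile normalization, and 2 to 15 and 0 to 0 with an array left out. The filter on dim genes also removed Bank1 and Arpp21, whose means over the 8 arrays were below it, though both read above it in Id2-GFP- pre-CD8.

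The replicate numbers of the titles did not pair the arrays across reporter classes. With the replicate number as a block the counts were 1 pathway gene in the CDP comparison, 157 and 3 from Id2-GFP- CDP to Id2-GFP- pre-CD8, and 6 and 0 for the contrast of reporter differences. With the array set as a block, which crosses the numbers, the counts were 1566 and 15 in the CDP reporter comparison, 4822 and 52 in pre-CD8, 2486 and 41 between the Id2-GFP- groups, 414 and 5 between the Id2-GFP+ groups, and 1492 and 32 for the contrast of reporter differences. The cause of these shifts was not tested. Dim genes near the RMA floor, such as Cd79a, limit what can be read as a difference.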
